A study of Populus ussuriensis with 12 samples.

Results

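Proanthocyanidins, also called condensed tannins, are polymers of flavan-3-ol units that poplars store in leaves, bark and roots. Their synthesis branches from the flavonoid pathway, and the late enzyme genes of that branch are switched by MYB transcription factors that act in a complex with a bHLH protein and a WD40 protein. In poplar, MYB134 and MYB115 are known as activators of this pathway, each able to raise tannin levels when overexpressed, and MYB182 is known as a repressor that lowers proanthocyanidin and anthocyanin synthesis. These 3 regulators were followed in roots of Populus ussuriensis that did or did not overexpress PuC3H35, a zinc finger protein gene of the C3H family, with and without PEG.

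The members were taken by identifier, as Populus trichocarpa gene models: MYB134 is Potri.006G221800.v3.1, MYB115 is Potri.002G173900.v3.1 and MYB182 is Potri.004G088100.v3.1. By the numbers in these identifiers they lie on chromosomes 6, 2 and 4. All 3 were found among the 35907 identifiers of each file, and all 3 passed the filter on low values (at least 1 FPKM in 3 or more libraries, met by 24976 genes). The names come from P. trichocarpa and not from the files, which pair 0 identifiers with a gene name, so neither the level of PuC3H35 nor markers of root or other tissues were checked, and no other identifier is given a name or role.

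The 4 groups had 3 libraries each: PuC3H35-OE roots on PEG, PuC3H35-OE roots on control medium, wild-type (WT) roots on PEG and WT roots on control medium. All plants were grown in vitro on half-strength Murashige and Skoog medium, were moved to new medium at 7 days of age, and had 7 days there with 6% PEG6000 or without it. PEG6000, a polyethylene glycol, makes water harder to take up and mimics drought. The promoter of the transgene and the number of transgenic lines behind the OE libraries are not stated in the labels. The OE libraries are numbered 1, 3 and 4 on PEG and 1, 2 and 5 on control medium, and whether these numbers mark transgenic lines is not stated. Nor do the labels say that libraries came from separate plants, so the p-values reflect library-to-library spread, some of which may be technical.

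Depth ran from 10566373 to 12053321 recovered reads per library, with 30432 to 31610 genes above 0. No replicate pair agreed within sampling noise: over the 12 pairs the chi-square per gene was between 3.1 and 16.07. MYB134 rested on 148 to 785 reads per library, MYB115 on 40 to 487 and MYB182 on 24 to 128. MYB182 is thus the least precisely measured of them: its lowest count, 24 reads, has an exact Poisson 95% interval of 15.4 to 35.7 reads, which covers counting error only.

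On control medium all 3 regulators were called higher in the overexpressor than in WT (limma adjusted p under 0.05), as were 12.8% of tested genes. On PEG both activators were called higher, as were 9.19% of tested genes. MYB182 also averaged higher in the overexpressor on PEG but did not pass the test (limma adjusted p 0.151). MYB115 showed the largest difference of the 3 on either medium. MYB134 was lower on PEG than on control medium in WT, a call that was lost when most single WT libraries were left out. In OE its log2 difference was no smaller, -0.65 against -0.56 in WT. It did not pass the test there (limma adjusted p 0.0873, against 0.0275 in WT). The PEG effects on MYB115 and MYB182 did not pass the test in either genotype. No regulator had a PEG response that passed the test for a difference between genotypes.

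MYB134, an activator that also responds to wounding, light and pathogen stress in poplar leaves, had 28.6, 26.2 and 28.1 FPKM (reads or fragments, scaled by gene length and library total) in libraries 1, 3 and 4 of the OE roots on PEG. It had 40.1, 39.4 and 53.5 FPKM in libraries 1, 2 and 5 of the OE roots on control medium. In WT roots it had 13.1, 18.2 and 10.04 FPKM in libraries 1, 2 and 3 on PEG, against 19.6, 21.1 and 20.1 FPKM on control medium. The 4 groups did not overlap: OE control was highest, followed by OE on PEG, WT control and WT on PEG. Taken per medium, every OE library lay above every WT library in 24.3% of tested genes on control medium and 22.6% on PEG. Every PEG library lay below every control in 25.3% of tested genes in WT and 10.7% in OE. How many tested genes have all 4 groups apart was not worked out. Library 5 stood above the other OE controls, and library 2 above the others of WT on PEG.

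MYB115, the second activator, had 29.8, 29.5 and 22.9 FPKM in libraries 1, 3 and 4 of OE on PEG and 23.5, 27.4 and 24.7 FPKM in libraries 1, 2 and 5 of OE on control medium. In WT it had 3.77, 7.93 and 2.43 FPKM in libraries 1, 2 and 3 on PEG, against 5.71, 6.53 and 6.25 FPKM on control medium. Every OE library exceeded every WT library, and the media overlapped within each genotype. Taken per medium, 24.3% of tested genes on control medium and 22.6% on PEG had every OE library above every WT library. How many genes had this over both media together was not worked out. The WT libraries on PEG were the most scattered: their SD was 61% of the mean, where counting error for their mean of 73.3 reads gives about 11.7%. In WT control the SD was 6.7% of the mean, under the 9.9% that counting error gives.

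MYB182, the repressor, was the least abundant per length. It had 3.97, 2.70 and 2.42 FPKM in libraries 1, 3 and 4 of OE on PEG and 2.96, 3.18 and 5.44 FPKM in libraries 1, 2 and 5 of OE on control medium. In WT it had 2.02, 1.92 and 1.61 FPKM in libraries 1, 2 and 3 on PEG, against 1.22, 1.86 and 0.988 FPKM on control medium. All OE libraries again lay above all WT libraries, the lowest OE value being 2.42 and the highest WT value 2.02 FPKM. These 2 values rest on 55 and 43 reads, and their exact Poisson 95% intervals overlap, 1.82 to 3.15 and 1.46 to 2.72 FPKM. Within a single medium, every OE library lay above every WT library in 24.3% of tested genes on control medium and 22.6% on PEG. The share over both media together was not worked out. Library 5 of the OE controls was the highest for this gene, as it was for MYB134.

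**Figure D1:**
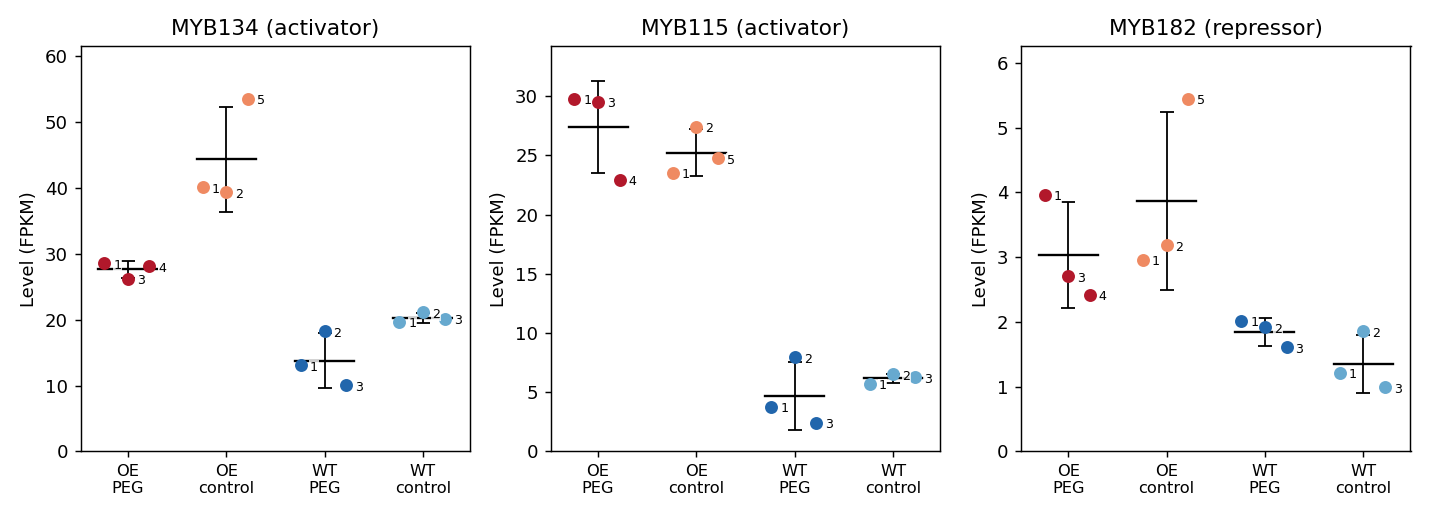
Level of each regulator in every library, in FPKM; points are libraries with their replicate number, bars the mean and SD of 3 libraries, and each panel has its own axis from 0. Every OE library lies above every WT library for MYB115 and MYB182. The 4 groups of MYB134 do not overlap, from 44.3 FPKM on average in OE control to 13.8 FPKM in WT on PEG. Within a single medium, 24.3% of tested genes on control medium and 22.6% on PEG had every OE library above every WT library. The shares over both media or all 4 groups were not worked out.

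Within their libraries the regulators held different places. MYB134 exceeded 67.4% to 93% of the genes detected in the same library, MYB115 37.8% to 87.1% and MYB182 24% to 51.7%. The lowest and the highest place of MYB115 were thus far apart, and the highest place of MYB182 was near the middle of the detected genes.

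Overexpression on control medium was compared first, since it asks what the transgenic material does to these regulators without stress. MYB115 averaged 25.2 ± 2.00 FPKM in OE and 6.17 ± 0.414 FPKM in WT (SD, n = 3 each), a ratio of means of 4.09. Its difference in log2(FPKM + 1) was 1.87 (SE 0.258, limma adjusted p 7.12e-04), the 129th highest of 24976 genes. MYB134 averaged 44.3 ± 7.98 FPKM in OE and 20.3 ± 0.756 FPKM in WT, a ratio of 2.18, with a log2 difference of 1.08 (SE 0.172, limma adjusted p 0.00165). MYB182 averaged 3.86 ± 1.38 FPKM in OE and 1.35 ± 0.451 FPKM in WT, a ratio of 2.85, with a log2 difference of 1.03 (SE 0.211, limma adjusted p 0.0061). The added 1 FPKM lowers the log2 difference of MYB182 most, and with 0.1 FPKM added it was 1.44. Of all tested genes, 20.3% were called changed in this comparison and 12.8% were called higher, against 3 of 3 regulators called higher. The balance of directions over all genes depends on the scaling, with 3191 higher and 1889 lower as deposited and 2252 higher and 2632 lower with median-ratio scaling, while the regulators' calls did not change. In bulk tissue, more RNA per cell and more cells of the type that makes it cannot be told apart, and the same holds for every difference below.

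On PEG the genotype difference was largest for MYB115, which averaged 27.4 ± 3.89 FPKM in OE and 4.71 ± 2.87 FPKM in WT. The ratio of means was 5.82 and the log2 difference 2.42 (SE 0.258, limma adjusted p 1.4e-04), which ranked 3 from the top of 24976 genes. MYB134 averaged 27.6 ± 1.26 FPKM in OE and 13.8 ± 4.15 FPKM in WT, a ratio of 2.00 and a log2 difference of 0.99 (SE 0.172, limma adjusted p 0.00318). MYB182 averaged 3.03 ± 0.823 FPKM in OE and 1.85 ± 0.214 FPKM in WT. Its log2 difference of 0.48 (SE 0.211, limma adjusted p 0.151) did not pass the test although no OE library overlapped a WT library. Its 95% interval ran from 0.03 to 0.94. Over all tested genes, 14.5% were called changed and 9.19% called higher in OE on PEG, and 22.6% had every OE library above every WT library, so the lack of overlap for MYB182 is common among genes. Here too scaling shifts the background, from 2296 higher and 1324 lower as deposited to 1436 higher and 1842 lower with median-ratio scaling, and the calls of both activators held under it.

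Both activators were called higher in OE on both media, as were 3.42% of tested genes. Ranked by the smaller of its 2 genotype differences, MYB115 was 7th and MYB134 92nd of 24976 genes, and MYB182 was 800th. The genotype comparisons share no library, but they come from a single fit with a shared estimate of the spread. Whether the OE libraries on both media came from the same transgenic lines is not stated, so the comparisons are not shown to be independent. Leaving out any single library kept the calls of MYB115 and MYB134 on both media and that of MYB182 on control medium, with adjusted p of at most 0.00383 for MYB115, 0.0181 for MYB134 and 0.0273 for MYB182.

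**Figure D2:**
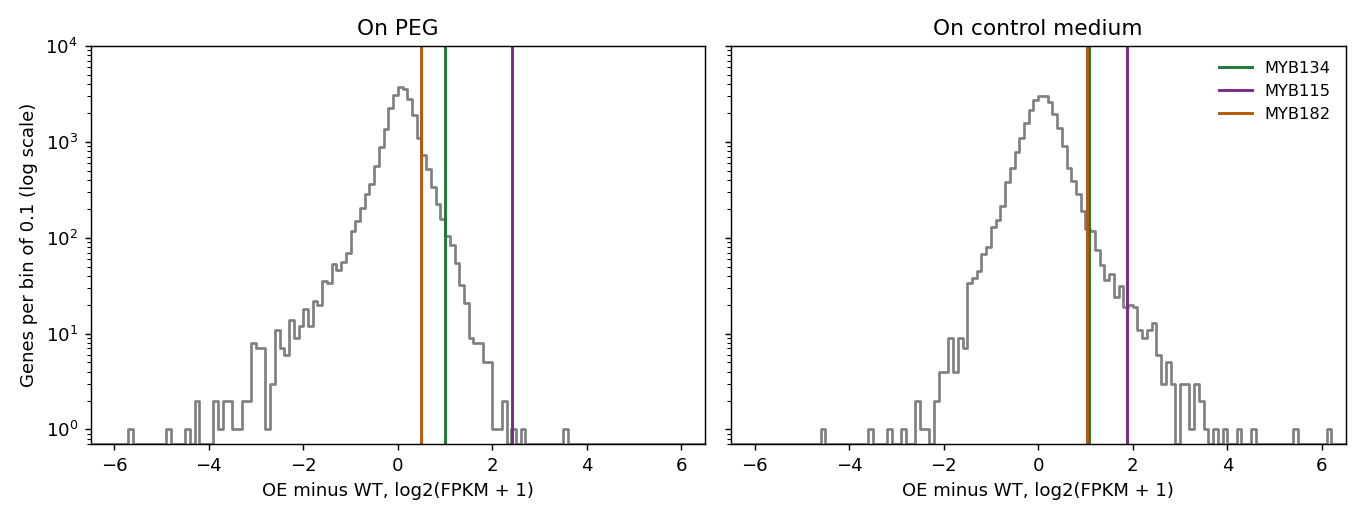
Number of tested genes by genotype difference (OE minus WT, log2(FPKM + 1), bins of 0.1, log scale, empty bins at the bottom edge), on PEG and on control medium, with the 3 regulators as vertical lines. MYB115 lies far in the right tail on PEG at 2.42, while MYB134 and MYB182 stand at 1.08 and 1.03 on control medium, or at 1.11 and 1.44 with 0.1 FPKM added in place of 1.

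The PEG response of WT roots asks how these regulators behave under drought-like stress without the transgene. MYB134 fell: its ratio of means, PEG over control, was 0.68 and its log2 difference was -0.56 (SE 0.172, limma adjusted p 0.0275). Of all tested genes, 28.6% were called in this comparison, 16.6% were called lower and 25.3% had every PEG library below every control. The call of MYB134 was lost when any of 5 of the 6 WT libraries was left out. In 4 of these fits the difference stayed near its full value: it was -0.55 without WT PEG library 1 (adjusted p 0.0799) and -0.59, -0.54 and -0.57 without WT control library 1, 2 and 3 (adjusted p 0.051, 0.0756 and 0.0666). Without WT PEG library 3, the lowest of its group, it was -0.37 with an adjusted p of 0.118. Without WT PEG library 2, the highest of its group, the difference was -0.77 with an adjusted p of 0.00272.

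MYB115 averaged 4.71 FPKM on PEG and 6.17 FPKM on control medium in WT, with a log2 difference of -0.44 (SE 0.258, limma adjusted p 0.233, 95% interval -1.01 to 0.12). Its value moved both ways with single PEG libraries: without library 2 the difference was -0.82 with an adjusted p of 0.00323, and without library 3 it was -0.13 with an adjusted p of 0.726. In both activators library 2 was the highest of the WT PEG libraries and library 3 the lowest. Library 2 differed from libraries 1 and 3 by a chi-square of 6.31 and 5.32 per gene, against 3.1 between libraries 1 and 3 and 4.61 to 16.07 between replicates of the other 3 groups. The part of this distance in the result was not tested. MYB182 averaged 1.85 FPKM on PEG and 1.35 FPKM on control medium in WT, with a log2 difference of 0.29 (SE 0.211, limma adjusted p 0.345, 95% interval -0.17 to 0.75).

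In the overexpressor no regulator passed the test for a PEG response. MYB134 averaged 27.6 FPKM on PEG and 44.3 FPKM on control medium, a ratio of 0.623, and the log2 difference was -0.65 (SE 0.172, limma adjusted p 0.0873, 95% interval -1.02 to -0.28). Every PEG library of MYB134 lay below every control, as in 10.7% of tested genes. Called genes were few in this comparison, 2.08% of those tested, and the difference of MYB134 ranked 433 from the lowest. Without WT PEG library 2 or 3, which enter through the shared estimate of the spread, its adjusted p was 0.0295 or 0.0445. MYB115 averaged 27.4 FPKM on PEG and 25.2 FPKM on control medium, with a log2 difference of 0.11 (SE 0.258, limma adjusted p 0.915, 95% interval -0.46 to 0.67). MYB182 averaged 3.03 FPKM on PEG and 3.86 FPKM on control medium, with a log2 difference of -0.25 (SE 0.211, limma adjusted p 0.692, 95% interval -0.71 to 0.21). Without OE control library 5, where MYB182 was highest, that difference was -0.03.

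**Figure D3:**
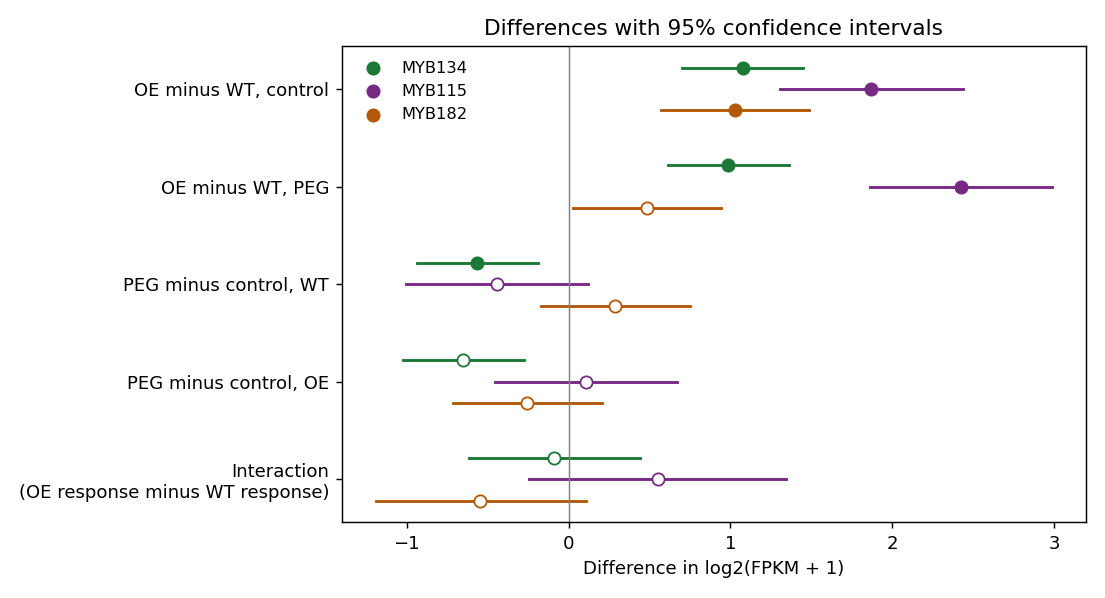
Difference of each regulator in the 5 comparisons, in log2(FPKM + 1), with 95% confidence intervals from the limma fit; filled points passed an adjusted p of 0.05 and open points did not. The 3 genotype differences on control medium and those of both activators on PEG are filled, as is MYB134 in WT on PEG at -0.56, and no interaction is.

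The difference between the PEG responses of the genotypes was tested as an interaction, the response in OE minus that in WT. It was -0.09 for MYB134 (SE 0.243, limma adjusted p 0.883, 95% interval -0.62 to 0.44), 0.55 for MYB115 (SE 0.365, adjusted p 0.422, 95% interval -0.25 to 1.35) and -0.54 for MYB182 (SE 0.298, adjusted p 0.319, 95% interval -1.19 to 0.10). Of all tested genes 7.5% were called. A p that misses the threshold does not show equal responses, and the intervals of MYB115 and MYB182 reach past 1 in size. Without WT PEG library 2 the interaction of MYB115 was 0.93 with an adjusted p of 0.0276, and without WT PEG library 3 it was 0.24 with an adjusted p of 0.726.

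**Figure D4:**
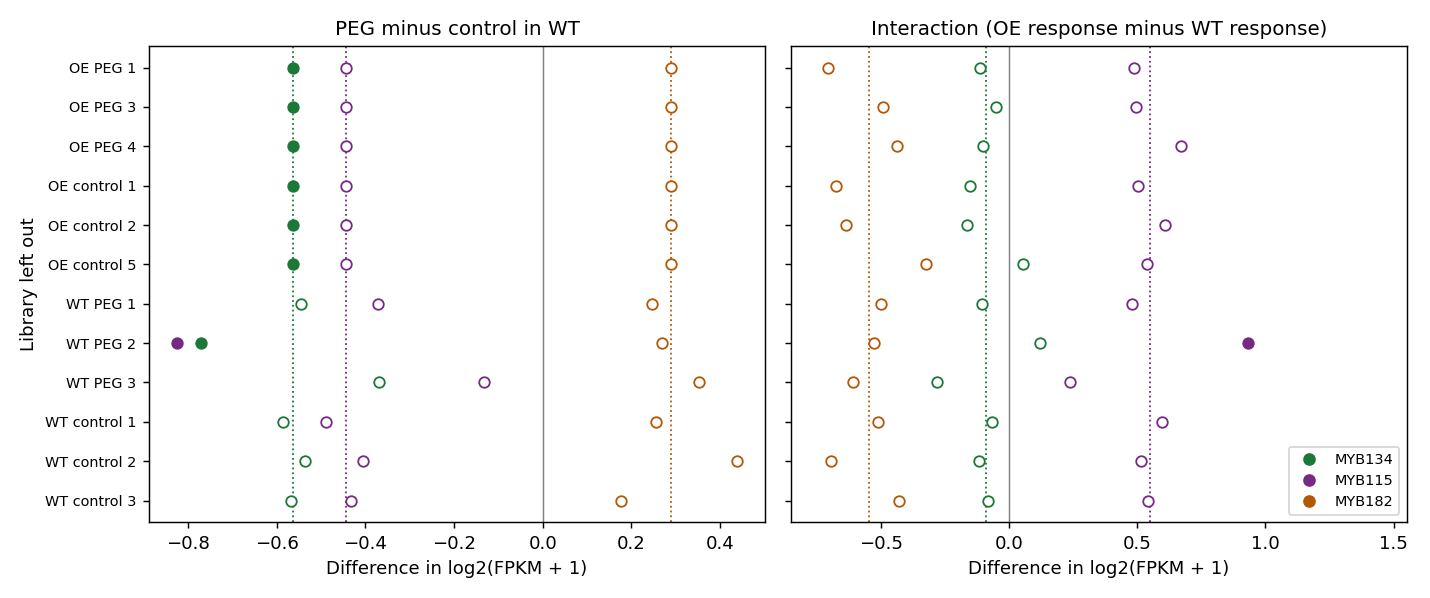
PEG effect in WT and interaction for the 3 regulators with each of the 12 libraries left out in turn, in log2(FPKM + 1); dotted lines are the values with all libraries, and filled points have an adjusted p under 0.05. Leaving out library 2 of WT on PEG moves MYB115 farthest, to -0.82 in the PEG effect and 0.93 in the interaction.

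The balance between activators and repressor was read as the ratio of their FPKM within a library, which scaling between libraries leaves as it is; the tests used the log2 ratio after 1 FPKM was added to each level. With 3 libraries against 3 the exact permutation test cannot give a p below 0.1, so none of the 12 comparisons of ratios could pass the threshold of 0.05, and the smallest Benjamini-Hochberg value over the 12 was 0.2. MYB134 over MYB182 was 7.20, 9.69 and 11.6 in libraries 1, 3 and 4 of OE on PEG and 13.6, 12.4 and 9.83 in libraries 1, 2 and 5 of OE control. In WT libraries 1, 2 and 3 it was 6.49, 9.51 and 6.24 on PEG, against 16.1, 11.4 and 20.4 on control medium. The WT media did not overlap, with PEG lower by a mean of -0.85 in log2 ratio (exact permutation test, two-sided, p = 0.1). The genotypes on control medium overlapped, with a log2 difference of 0.05 (exact permutation p = 0.8). The direction of this small difference depends on the added value: it was -0.33 with 0.1 FPKM added, and the raw ratio averaged 11.9 in OE control and 16.0 in WT control.

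MYB115 over MYB182 was higher in the overexpressor without overlap on PEG. It was 7.50, 10.9 and 9.46 in libraries 1, 3 and 4 of OE on PEG, against 1.87, 4.13 and 1.51 in libraries 1, 2 and 3 of WT on PEG. On control medium it was 7.95, 8.62 and 4.55 in libraries 1, 2 and 5 of OE, against 4.70, 3.52 and 6.33 in libraries 1, 2 and 3 of WT. The raw ratio of OE control library 5 lay inside the WT control range, while the log2 ratio with 1 FPKM added, 2.00, lay above the highest WT value of 1.87. The log2 differences were 1.94 on PEG and 0.84 on control medium (exact permutation p = 0.1 each).

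The ratio of the activators to each other did not overlap between genotypes on either medium. What share of all gene pairs does so was not worked out, for this ratio or those above. MYB134 over MYB115 was 0.96, 0.888 and 1.23 in libraries 1, 3 and 4 of OE on PEG and 1.71, 1.44 and 2.16 in libraries 1, 2 and 5 of OE control. In WT it was 3.48, 2.30 and 4.14 in libraries 1, 2 and 3 on PEG, against 3.44, 3.24 and 3.22 on control medium. The levels of both activators were thus about equal per length in OE on PEG, while MYB134 was at least 2.30 times MYB115 in every WT library. The genotypes did not overlap on PEG (log2 difference -1.43) or on control medium (-0.80), nor did the media in OE (-0.76), each with an exact permutation p of 0.1. In WT the media overlapped, with a difference of -0.12 (exact permutation p = 0.9).

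**Figure D5:**
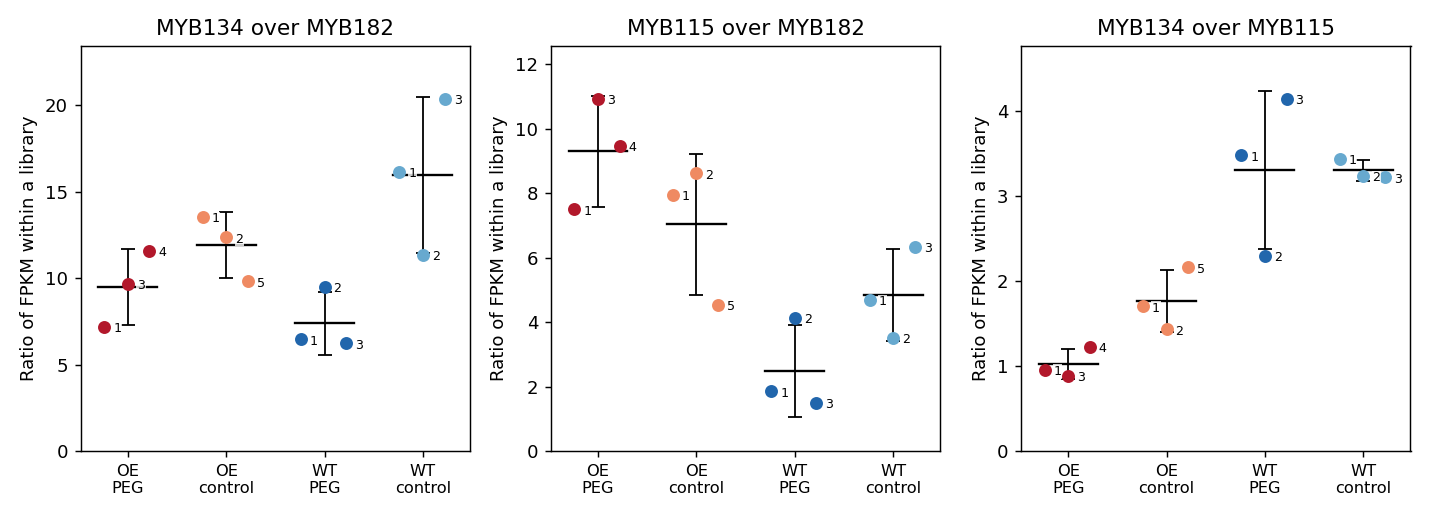
Ratio of FPKM between pairs of regulators within each library; points are libraries with their replicate number, bars the mean and SD of 3 libraries, axes from 0. MYB134 over MYB115 averages 1.03 in OE on PEG, 1.77 in OE control, 3.31 in WT on PEG and 3.30 in WT control.

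Genes with the most similar profiles were sought by Pearson correlation of log2(FPKM + 1) over the 12 libraries, among 17043 genes that reached an average of 5 FPKM in some group (17044 for MYB182, which itself lies below that level). The 12 points share the 4 groups, so these values describe the pattern over groups and carry no p. Closest to MYB134 were Potri.002G137200.v3.1 (r = 0.987) and Potri.004G067000.v3.1 (r = 0.976). The first averaged 36.6 and 46.8 FPKM in OE on PEG and on control medium, and 27.0 and 31.2 FPKM in WT on PEG and on control medium, so it followed the same order of groups over a narrower range.

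Closest to MYB115 were Potri.016G104300.v3.1 (r = 0.98) and Potri.015G050200.v3.1 (r = 0.978). Potri.016G104300.v3.1 averaged 232 and 210 FPKM in OE on PEG and on control medium, and 61.5 and 68.3 FPKM in WT on PEG and on control medium. Potri.015G050200.v3.1 averaged 55.5 and 71.4 FPKM in OE on PEG and on control medium, and 12.3 and 18.0 FPKM in WT on PEG and on control medium. Closest to MYB182 were Potri.019G082400.v3.1 (r = 0.95) and Potri.015G131300.v3.1 (r = 0.947), both with their highest mean in OE control.

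The regulators were not each other's nearest neighbours. MYB115 ranked 341st of 17043 genes by its correlation with MYB134 (r = 0.876). MYB182, not itself among those genes, would rank 1557th for MYB134 (r = 0.753) and 1395th for MYB115 (r = 0.772). In each case many other genes followed the regulator more closely than its fellow regulators did, while most of the genes compared followed it less closely.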

How the data were processed

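RNA-seq of total RNA from roots gave 12 libraries, made with an Illumina TruSeq kit after CTAB extraction, per the labels' protocols. Each deposited file held 1 value per gene, read here as FPKM from the values alone, since the header names no unit. Whether reads or fragments were counted (RPKM or FPKM) is not known. Bowtie2 2.2.3 and HISAT2 2.1.0 are named without a role, per the submitters' processing notes. No source used here names the counting tool, annotation or build.

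The main test was limma 3.58.1 in R 4.3.3 (empirical Bayes with an intensity trend, two-sided) on log2(FPKM + 1), a single model of the 4 groups over all 12 libraries (8 residual degrees of freedom), with Benjamini-Hochberg adjustment over 24976 genes. A gene is called under an adjusted p of 0.05. SE and intervals are limma's. Fold changes on this scale understate the change of low genes. Read numbers were worked out from the steps between low values: 99.998% of 365394 non-zero values were whole within 0.01 read. The named genes are the 3 regulators and, for each, the most correlated genes (5 were ranked, and the first 2 are printed). The members and lists were chosen with earlier results of these data known. Ratios were compared by an exact permutation test in scipy 1.17.1. Lists of pathway enzymes and partner proteins, of tissue markers, and protein and promoter sequences, were planned for a reference that names the identifiers and were not used here.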

Additional observations from a re-analysis of the deposited data

How the results depend on the processing

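The 15 differences of the 3 regulators were refitted under 8 other settings and without each library in turn, 297 fits in all. The interaction, which needs all libraries, had 7 other settings. Of the 297 fits, 282 kept direction and side of the threshold, but in many of them the difference itself could not move. That holds for no filter, no intensity trend, the compared libraries alone, and any left-out library from outside the comparison. Only the adjusted p could change there, so this count overstates how far the differences were tested. The 5 genotype differences that passed the test did so under every one of their refits. Median-ratio and upper-quartile scaling, a pseudocount of 0.1, no filter, no intensity trend and a fit of the compared libraries alone ended no call. The planned edgeR and DESeq2 fits were not run, and limma-voom on recovered reads, chosen after seeing the data, took their place. It gave -0.67 for MYB134 on PEG in OE (limma-voom adjusted p 0.0449, over all fits 0.0295 to 0.578). Blocked by replicate number, MYB182 in OE against WT on PEG was 0.67 (adjusted p 0.0419, over all fits up to 0.388). MYB182 on PEG in OE (0.26) and the interaction of MYB134 (0.22) were reversed. Numbers 4 and 5 occur once, so the fit in effect drops OE PEG library 4 and OE control library 5. What pairing adds was not tested. The block called 3138 genes in place of 5080 (genotype, control medium), 2174 in place of 3620 (genotype, PEG), 149 in place of 519 (PEG, OE) and 848 in place of 1873 (interaction). No label pairs the samples by number, and correlations of deviations from the group means do not settle it. Same-numbered WT libraries on the 2 media gave 0.101, 0.076 and -0.014, the best match for numbers 1 and 2 but not 3. Between genotypes same-numbered ones ran from -0.233 (number 2, both controls) to 0.263 (number 1, OE on PEG and WT control).

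With single libraries left out, the PEG effect ranged from -0.77 to -0.37 for MYB134 and from -0.82 to -0.13 for MYB115 in WT, and from -0.73 to -0.51 for MYB134 in OE; the interaction ranged from -0.28 to 0.12 for MYB134 and from 0.24 to 0.93 for MYB115. The interaction of MYB134 reversed without OE control library 5 (0.05) or WT PEG library 2 (0.12). Numbers of called genes ranged from 3118 to 5716 (genotype, control medium), 1660 to 3773 (genotype, PEG), 5171 to 7595 (PEG, WT), 242 to 583 (PEG, OE) and 894 to 2050 (interaction), and 263 genes were called for PEG in OE from its own libraries. With a pseudocount of 0.1 the log2 ratio of MYB134 over MYB182 differed by -0.33 between OE and WT on control medium, against 0.05, since MYB182 was near 1 FPKM in WT. Counts of 24 to 128 reads limit what can be seen of MYB182.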

Other observations

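The genes next to the regulators in identifier order were looked at after the results were seen. Of the 12 nearest identifiers, 2 on each side of each regulator, 8 passed the filter. In the overexpressor against WT on control medium 1 of these 8 was called, where 20.3% of all tested genes were, Potri.006G221900.v3.1 beside MYB134, with a mean of 2.76 FPKM in OE and 0.73 FPKM in WT (log2 difference 1.12, limma adjusted p 0.00485). On PEG, 1 of 8 was called between genotypes, where 14.5% of all tested genes were, Potri.006G221700.v3.1 on the other side of MYB134, with 19.6 FPKM in OE and 14.7 FPKM in WT (log2 difference 0.40, limma adjusted p 0.0448). In WT, 1 of 8 was called between media, where 28.6% of all tested genes were: Potri.006G221900.v3.1 averaged 1.77 FPKM on PEG and 0.73 FPKM on control medium (log2 difference 0.69, limma adjusted p 0.0328). The tested neighbours of MYB115 had genotype differences of -0.35 to 0.45.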
